A study of Homo sapiens with 22 samples.

Results

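The lists of RNA polymerase II (Pol II) peaks from QKI5 knockdown and sh-control THP-1 cells were compared peak by peak and gene by gene. They held 35094 peaks in QKI5 knockdown and 33370 peaks in sh-control on chromosomes 1 to 22, X and Y, together 68464 of the 119724 peaks in the 6 deposited lists. A further 9 knockdown and 6 sh-control peaks on other contigs were left out. THP-1 is a human monocytic leukaemia cell line. The knockdown cells were infected with a lentivirus carrying sh-QKI5, a short hairpin against QKI5, and the sh-control cells with a lentivirus carrying a sh-control hairpin, although the design text of the series calls them untreated. Each condition had 2 Pol II chromatin immunoprecipitation (ChIP) samples, and the deposited list of each condition was made from both. Neither the hairpin sequence nor the time after infection is given in the sources used here.

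Pol II transcribes protein-coding genes and many non-coding RNAs. It pauses shortly after the start site of many genes, is then released into the gene body, and goes on past the cleavage site at the 3′ end before it leaves the DNA. ChIP with a Pol II antibody therefore gives narrow peaks at starts of most active genes, with broad peaks over the bodies and downstream ends of the most heavily transcribed ones. QKI5, the isoform of the STAR family protein QKI that resides in the nucleus, binds RNA and is best known as a regulator of splicing. The series title names a transcriptional regulatory activity of QKI5 in monocytic differentiation, and the Pol II lists show where polymerase was detected when QKI5 was reduced.

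Both lists had the marks of a myeloid cell. Gene-end Pol II peaks, meaning peaks that come within 1 kb of the outer start or end of a gene span, were present at 12 of 14 monocyte and myeloid marker genes in knockdown and at 12 of 14 in sh-control, among them SPI1, LYZ, CD14 and CD33. MPO had none in either list. None of the 4 epithelial markers had a gene-end peak in either list. The T and NK cell list had 1 of 4 in each, NKG7, and CD3D, CD3E and CD2 had none. The erythroid list had 2 of 5 in knockdown and 1 of 5 in sh-control, with no gene-end peak at HBB or GATA1. Of 5 B cell markers 2 had a peak in each list, and MS4A1 had none in either. QKI itself had a peak of 6954 bp at its start in knockdown and of 6642 bp in sh-control. It had 6433 bp of its length under peaks in knockdown and 6454 bp in sh-control. Neither RNA nor protein of QKI5 is measured by these lists, and how far the knockdown went is not shown by them.

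The promoters below are examples of start sites with Pol II in a single list, chosen after their values were seen, from the widest such peaks and, for CXCL3, from the chemokine list. DAPK1 (death-associated protein kinase), GM2A (the lysosomal activator of ganglioside breakdown) and CXCL3 (a neutrophil-attracting chemokine) had Pol II at the start in knockdown alone. G0S2 (an inhibitor of lipolysis) and IFT27 (a subunit of the transport complex of cilia) had it in sh-control alone. Each sequence is the 250 bases before the annotated start from RefSeq (GRCh38.p14), 5′ to 3′ on the gene's strand. The windows are DAPK1 at chr9:87497617-87497866 on the plus strand, GM2A at chr5:151252935-151253184 on the plus strand, CXCL3 at chr4:74038690-74038939 on the minus strand, G0S2 at chr1:209675162-209675411 on the plus strand and IFT27 at chr22:36776120-36776369 on the minus strand. Capitals mark the TATA box letters TATAAA, the CCAAT box and the GC box GGGCGG, each searched on both strands, so that ATTGG and CCGCCC are CCAAT and GGGCGG read on the opposite strand.
DAPK1: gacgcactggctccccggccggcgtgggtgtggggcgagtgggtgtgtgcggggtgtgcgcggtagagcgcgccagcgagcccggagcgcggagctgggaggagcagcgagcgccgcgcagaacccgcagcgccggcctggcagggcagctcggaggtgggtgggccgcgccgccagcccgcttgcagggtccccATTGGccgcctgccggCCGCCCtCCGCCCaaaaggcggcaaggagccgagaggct
GM2A: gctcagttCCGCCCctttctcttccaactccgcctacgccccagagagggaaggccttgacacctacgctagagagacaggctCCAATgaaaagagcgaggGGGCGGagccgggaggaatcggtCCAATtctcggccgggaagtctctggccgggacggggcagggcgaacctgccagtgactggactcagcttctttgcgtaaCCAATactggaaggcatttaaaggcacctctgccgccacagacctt
CXCL3: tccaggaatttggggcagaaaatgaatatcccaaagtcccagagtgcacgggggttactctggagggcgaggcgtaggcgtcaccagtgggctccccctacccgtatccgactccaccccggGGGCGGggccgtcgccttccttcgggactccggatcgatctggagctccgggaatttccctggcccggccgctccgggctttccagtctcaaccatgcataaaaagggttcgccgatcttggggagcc
G0S2: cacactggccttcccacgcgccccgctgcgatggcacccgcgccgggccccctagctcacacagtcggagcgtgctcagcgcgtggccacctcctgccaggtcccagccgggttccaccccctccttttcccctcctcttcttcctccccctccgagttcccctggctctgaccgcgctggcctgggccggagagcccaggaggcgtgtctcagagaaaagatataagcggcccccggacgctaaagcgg
IFT27: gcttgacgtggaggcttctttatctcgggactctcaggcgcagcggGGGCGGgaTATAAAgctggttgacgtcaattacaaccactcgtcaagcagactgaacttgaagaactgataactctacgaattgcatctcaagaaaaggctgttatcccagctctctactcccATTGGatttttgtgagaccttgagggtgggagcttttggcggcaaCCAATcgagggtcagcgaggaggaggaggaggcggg
In DAPK1, GM2A and CXCL3 all 250 bases lay under a knockdown Pol II peak and 0 under a sh-control peak. In G0S2 and IFT27 all 250 bases lay under a sh-control peak and 0 under a knockdown peak. All 5 windows lay wholly under an H3K4me3 peak in both conditions. H3K4me3 is a histone mark of promoters. The G0S2 window held none of the motifs searched.

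The letters of these promoters were set beside those of all 15842 protein-coding genes with a promoter entry. GGGCGG was found in 64.5% of the 561 promoters with a start-site peak in knockdown alone and in 59.6% of the 235 with one in sh-control alone. It was found in 70.2% of the 9193 with a peak in both lists, in 32.7% of the 5853 with a peak in neither, and in 56.0% of all. TATAAA was found in 5.53% of the knockdown-alone promoters and 5.96% of the sh-control-alone promoters, against 4.84% with a peak in both lists, 16.6% with a peak in neither and 9.23% of all. CCAAT was found in 32.6% and 26.4% of the promoters with a peak in knockdown alone and in sh-control alone, against 35.7% with a peak in both lists, 33.0% with a peak in neither and 34.5% of all. Median GC content was 65.2% in knockdown alone, 63.2% in sh-control alone, 65.6% with a peak in both and 54.0% with a peak in neither. By the GC box, the TATA box and GC content the single-list promoters were nearer to the promoters occupied in both lists than to the unoccupied ones. A match describes the letters and does not show that a factor bound there.

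Pol II peaks covered 60.4 Mb in knockdown and 56.7 Mb in sh-control, with a median width of 952 bp and 923 bp. The width of 501 bp was the narrowest and the most common, at 10044 knockdown and 9721 sh-control peaks. Above 2 kb there were 8958 knockdown and 8134 sh-control peaks, and above 5 kb there were 1911 and 1736. The order turned at the widest peaks. Above 10 kb there were 427 knockdown and 434 sh-control peaks, above 20 kb 62 and 74, and above 40 kb 3 and 6. The knockdown list therefore had more peaks of a few kb and fewer of the very broad ones.

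Shared peaks are those with an overlap of 1 bp or more with the opposite list. Sharing followed width closely. Of the 501 bp peaks, 21.3% of knockdown and 25.5% of sh-control peaks were shared. Above 501 and up to 1000 bp 41.8% and 51.9% were shared, above 1000 and up to 2000 bp 82.3% and 85.6%, and all 427 knockdown and all 434 sh-control peaks above 10 kb were shared. Peaks found in a single list numbered 14242 in knockdown and 12254 in sh-control, with a median width of 501 bp in each. Of these, 62.4% in knockdown and 69.4% in sh-control lay within 5 kb of a peak of the other list, and 7.83% and 4.39% lay more than 50 kb from one. Since each list pools 2 samples and the lists carry no read counts, the depth is unknown and no difference between them has a replicate check. The 95% intervals given here cover counting error only, and neighbouring peaks are not independent. In pooled cultures, Pol II in fewer cells and less Pol II per cell cannot be told apart.

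**Figure D1:**
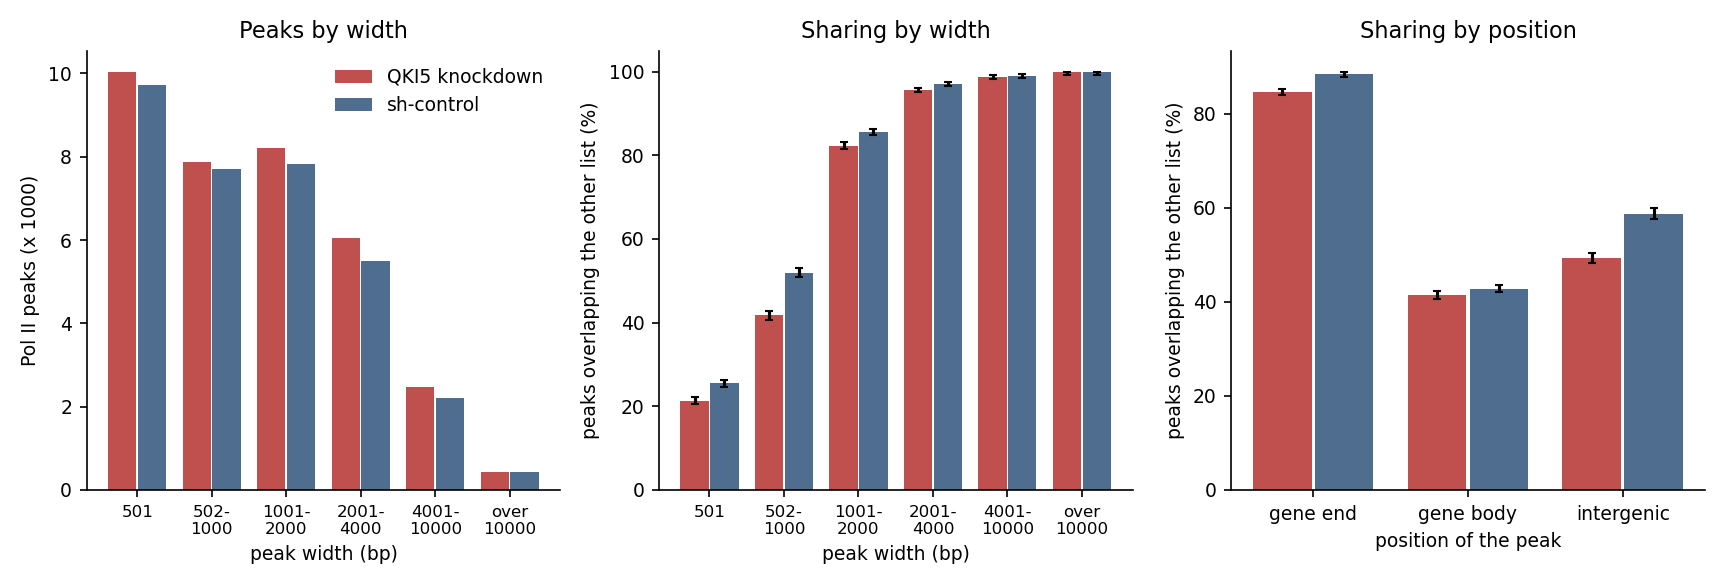
Pol II peaks of the QKI5 knockdown list (red) and the sh-control list (blue). The left panel gives the number of peaks by width in bp, and the middle and right panels the share (%) overlapping the other list by at least 1 bp, by width and by position, with exact 95% intervals. Sharing climbs from 21.3% and 25.5% at 501 bp to 100% above 10000 bp, and intergenic peaks are shared in 49.3% of knockdown and 58.7% of sh-control cases.

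Peaks were divided by position into gene-end peaks, gene-body peaks inside a protein-coding gene and more than 1 kb from its ends, and intergenic peaks. Gene-end peaks made up 37.7% of the knockdown list, 13235 peaks, and 37.96% of the sh-control list, 12666 peaks. They were the broadest class, with a median of 1957 bp in knockdown and 1874 bp in sh-control, and held 59.96% and 59.8% of the covered length. Gene-body peaks made up 40.95% in knockdown and 42.4% in sh-control, a difference of -1.41 percentage points (95% interval -2.14 to -0.667). Their median width was 640 bp in knockdown and 638 bp in sh-control, and 43.1% and 43.95% of them were 501 bp wide. Intergenic peaks made up 21.3% and 19.7%, a difference of 1.65 points (1.04 to 2.25), with median widths of 755 bp and 724.5 bp. The gene-end share differed by -0.243 points, with an interval that spans 0 (-0.970 to 0.483).

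Sharing was highest at gene ends, at 84.6% of knockdown and 88.4% of sh-control peaks, which is 11202 and 11201 peaks. In gene bodies 41.4% and 42.8% were shared, 5956 and 6056 peaks. Between genes 49.3% and 58.7% were shared, 3694 and 3859 peaks. The lists count largely the same overlaps from each side. The differences of -3.79, -1.40 and -9.40 points therefore depend on the number of peaks in each list, and no interval is given for them. Among the widest 33370 peaks of each list, at all positions, 61.5% and 62.4% were shared. Gene-end peaks of a single list carried H3K4me3 of their own condition at 678 of 2033 peaks in knockdown, 33.3%, and at 284 of 1465 in sh-control, 19.4%, a difference of 13.96 points (11.1 to 16.8). Of these single-list gene-end peaks, 30.8% in knockdown and 17.7% in sh-control lay on the mark in both conditions. Shared gene-end peaks carried the mark in 84.7% of knockdown and 84.8% of sh-control cases. In gene bodies the mark lay on 14.2% and 13.2% of the single-list peaks, and the interval of that difference spans 0 (-0.0475 to 2.05 points). Between genes it lay on 14.5% and 15.6% of them, a difference of -1.14 points (-2.93 to 0.610).

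Taken by gene, 11551 protein-coding genes had a gene-end Pol II peak in both lists. A gene-end peak was present in knockdown alone at 795 genes, 6.25% of the 12729 genes with one in either list, and in sh-control alone at 383 genes, 3.01%. Requiring over 5 kb between the peak and any peak of the other list left 548 genes in knockdown alone (4.31%) and 204 in sh-control alone (1.60%). Their peaks were narrow, with medians of 753.5 bp in knockdown and 640.5 bp in sh-control, and 184 of the 548 and 81 of the 204 were 501 bp wide. Of the 548 genes in knockdown alone 348 had the peak at the gene start, 319 of them on H3K4me3 of their own condition. In 61 it lay at the 3′ end, 10 of them on the mark, in 5 at both, and in 134 the strand was unknown. Of the 204 genes in sh-control alone 116 had it at the start, 98 of them on the mark, and 37 at the 3′ end, 4 of them on the mark. In 1 it lay at both, and in 50 the strand was unknown.

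The widest of these knockdown-alone peaks was at RNF207, which encodes a RING-finger protein. It spanned 6218154 to 6225050 on chromosome 1 (coordinates of peaks are GRCh38.p5), 6897 bp at the 3′ end of the gene, without H3K4me3 in either condition, and ended 5953 bp from the nearest sh-control peak. BLOC1S3, a subunit gene of a complex that builds lysosome-related organelles, had a peak of 4991 bp at its start. NPEPPS, an aminopeptidase gene, had 3810 bp at its 3′ end without the mark, and reads from gene copies of near-identical sequence could be split there. BBX, which encodes an HMG-box transcription factor, had 3536 bp at its start, 90015 bp from the nearest sh-control peak. GM2A had 2802 bp from 151251702 to 151254503 on chromosome 5, and LGR4, a receptor gene of the Wnt pathway, had 2699 bp. DAPK1 stood farthest from any sh-control peak of the widest 10, at 225954 bp, with a peak of 2597 bp from 87497371 to 87499967 on chromosome 9. ADAMTS2, a procollagen-processing protease gene, had 2590 bp at its start, and CFAP141 and PRR22 had 2532 bp each. Of these 10 genes 6 carried H3K4me3 in both conditions, so at these the mark was present while Pol II was called in knockdown alone.

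In sh-control alone the widest peaks were narrower. DDT, which encodes a relative of the cytokine MIF, and its near-identical neighbour DDTL shared a peak of 3301 bp, and reads of the 2 copies may not be told apart. C12orf76 had 2614 bp at its 3′ end. G0S2 had 2578 bp from 209673416 to 209675993 on chromosome 1, which covers the start of this gene of 979 bp and stops short of its end. The closest knockdown peak lay 27949 bp away. FBXO40 had 2100 bp at its 3′ end, NPHP4 (a ciliary gene) 1634 bp at its start, HSF5, of the heat shock factor family, 1628 bp, and GNE, of sialic acid synthesis, 1600 bp at its 3′ end. IFT27 had 1572 bp from 36775364 to 36776935 on chromosome 22, with the closest knockdown peak 83514 bp away. PARD3, a cell polarity gene, had 1543 bp, 181080 bp from one. Further down this list stood CD274, which encodes the immune checkpoint ligand PD-L1, with 1224 bp at its start in sh-control alone. IL4R, the interleukin-4 receptor gene, had 1509 bp and IGF1R, a growth factor receptor gene, 1478 bp at their starts in knockdown alone. These 3 genes were chosen after their values were seen.

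Starts and 3′ ends were then counted apart in the 15842 genes whose strand was known. A peak touched the window within 1 kb of the start in 61.6% of genes in knockdown and 59.5% in sh-control, with 561 genes in knockdown alone, 235 in sh-control alone and 9193 in both. At 3′ ends a peak was present in 26.9% and 25.4% of genes. There 1013 genes had it in knockdown alone, 768 in sh-control alone and 3253 in both. Of the genes with a peak in either list, 92.0% had it in both at starts and 64.6% at 3′ ends. The count in knockdown alone was 2.39 times that in sh-control alone at starts and 1.32 times at 3′ ends.

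Among gene lists of known function, chemokine and interferon genes had the highest shares of knockdown-alone peaks among lists in which 10 or more genes had a gene-end peak. Of 27 chemokine and cytokine genes 16 had a gene-end peak in either list. It was in knockdown alone at 5 of them, 31.2%, and in sh-control alone at 0, against 6.25% and 3.01% of all genes. Of 27 interferon response genes 22 had a peak in either list, in knockdown alone at 5, 22.7%, and in sh-control alone at 0. The other lists together had 10 of 362 genes in knockdown alone, 2.76%, and 4 in sh-control alone, 1.10%. These lists were drawn up with earlier results of these data known, so the counts describe them and are no independent evidence.

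CXCL3 had 774 bp from 74038406 to 74039179 on chromosome 4, 59475 bp from the nearest sh-control peak, over the promoter printed above. LIF, a cytokine gene of the interleukin-6 family, had 669 bp, and CXCL16, which encodes a scavenger-receptor chemokine, had 626 bp, both on H3K4me3 of both conditions. IL1RN, the interleukin-1 receptor antagonist gene, had 501 bp at its 3′ end, and CSF3, the granulocyte colony-stimulating factor gene, had 501 bp. Neither of these carried the mark. Members with peaks in both lists went either way in width. CXCL2 had 1073 bp in knockdown and 1303 bp in sh-control, TNF 9045 and 11697 bp, IL18 1474 and 1752 bp, CCL3 2638 and 2327 bp, and OSM 6395 and 3180 bp. CXCL8, CCL2, IL6 and CXCL10 had no gene-end peak in either list.

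Among interferon genes, IFIT5, of the family that binds foreign RNA, had 1078 bp at its start, 111706 bp from the nearest sh-control peak. OAS3 had 895 bp, 30949 bp away, and OASL had 815 bp, 56850 bp away, both of the oligoadenylate synthetase family that senses double-stranded RNA. IFITM1, a gene of the membrane proteins that block virus entry, had 1979 bp over the gene, with a sh-control peak 908 bp away. ISG20, an exonuclease gene, had 501 bp, 2621 bp from one and without H3K4me3. The same list held ISG15 at 2535 bp in knockdown and 1907 bp in sh-control, IRF1 at 5584 and 4906 bp, and IRF7 at 2296 and 5275 bp, so peak width had no common direction. IFIT1, IFIT3, IFI44 and IFI27 had no gene-end peak in either list.

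**Figure D2:**
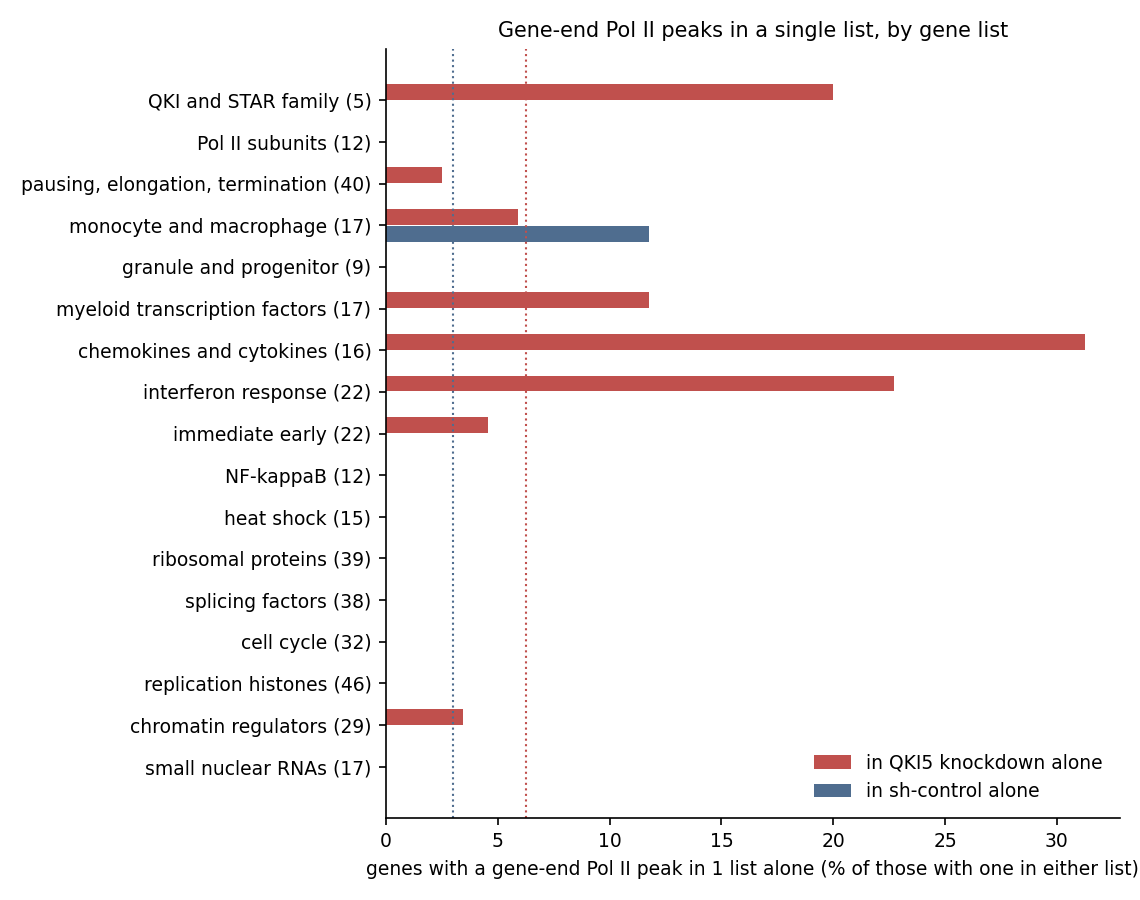
Share of genes with a gene-end Pol II peak in QKI5 knockdown alone (red) or in sh-control alone (blue), in % of the genes of each list with one in either list. The number of such genes is in brackets, lists with fewer than 5 are not drawn, and dotted lines give 6.25% and 3.01% of all protein-coding genes. The chemokine and cytokine bar reaches 31.2% and the interferon bar 22.7% in knockdown, and most lists of housekeeping function have no bar.

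Other lists kept their gene-end peaks in both conditions. This held for 39 of 39 ribosomal protein genes, 12 of 12 Pol II subunit genes, 12 of 12 NF-kappaB genes, 15 of 15 heat shock genes and 46 of 47 replication histone genes, the last having a peak in neither list. In the pausing, elongation and termination list 39 of 40 had a peak in both. The exception was MLLT3, which encodes a subunit of the super elongation complex and is the partner in the MLL fusion of THP-1, with 1083 bp at its 3′ end in knockdown alone. Another knockdown peak near its start, no wider, lay 60397 bp from the nearest sh-control peak. In all, 146 bp of the gene were covered in knockdown and 0 in sh-control. Of the myeloid transcription factor genes 15 of 21 had peaks in both, while CEBPE, of late granulocyte differentiation, had 665 bp and ERG, an ETS factor, had 932 bp at their starts in knockdown alone. Of the monocyte and macrophage genes 14 of 24 had peaks in both. CSF1R, the receptor of macrophage colony-stimulating factor, had 755 bp at its 3′ end in knockdown alone. Another gene-end knockdown peak of CSF1R, no wider, lay 2980 bp from the nearest sh-control peak. ITGAM, an integrin subunit gene, had 772 bp at its start in sh-control alone, 2687 bp from a knockdown peak. FCGR3A and the B cell gene CD79A, in sh-control alone, and ATF3, in knockdown alone, overlapped a peak of the other list that stopped short of the gene end. DNMT3A, a DNA methyltransferase gene, had 1496 bp at its start, and KHDRBS2, a STAR family relative of QKI, had 912 bp, both in knockdown alone and on H3K4me3 of both conditions. Of the B cell genes, PAX5 and CD79B had peaks of 501 bp each in knockdown alone, and the CD79A peak in sh-control alone was 2977 bp wide. ALAS2, of erythroid haem synthesis, had 1463 bp at its 3′ end in knockdown alone, without the mark.

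Overlapping peaks of both lists formed 19234 shared sites, of 45730 runs of overlapping peaks in all. The summed peak width at a site was on the whole slightly larger in knockdown, with a median log2 ratio of 0.05. It was at least 1.5 times larger in knockdown at 3337 sites, 17.3%, and at least 1.5 times larger in sh-control at 2103 sites, 10.9%. The ratio was lower at larger sites. Sites were grouped by the geometric mean of their widths in the lists. Those of 501 to 1000 bp had a median log2 ratio of 0.16 and those of 2000 to 4000 bp one of 0.06. It was 0.01 at those of 8000 to 16000 bp and -0.04 at the 181 sites over 16000 bp. At 1167 sites 1 knockdown peak spanned 2 or more sh-control peaks, and at 891 sites 1 sh-control peak spanned 2 or more knockdown peaks. At the 181 broadest sites the order was opposite, with more peaks in knockdown at 78 and in sh-control at 50.

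At 5905 start sites with a single peak in each list, the downstream edge lay at a median of 1065 bp from the start in knockdown and 1014 bp in sh-control, and the upstream edge at 818 bp and 768 bp. The median shift between paired edges was 47 bp farther downstream in knockdown (quartiles -217 to 318 bp) and 36 bp farther upstream (-134 to 242 bp). The downstream edge was farther out in knockdown at 55.3% and nearer at 44.6% of these sites. Start peaks were therefore a little wider on both sides in the knockdown list, by a shift that is small beside its spread over sites.

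The largest width ratios at gene ends were at sites that were 501 bp or little more in the other list. SLC35F5, of a nucleotide-sugar transporter family, had 4602 bp in knockdown and 501 bp in sh-control. FAF2, of endoplasmic reticulum-associated degradation, had 4310 and 501 bp, ANPEP, which encodes the myeloid surface aminopeptidase CD13, 3740 and 501 bp, and the zinc finger gene ZNF20 5772 and 803 bp. GRB2, a signalling adaptor gene, had 3329 and 501 bp just inside its 3′ end. Just past that end the sh-control peak was the wider one. It ran from 87.7 to 97.5 kb after the start, and the knockdown peak from 87.6 to 94.3 kb. In the other direction EIF3B, a translation initiation factor gene, had 501 bp in knockdown and 4377 bp in sh-control. The site shared by DRG1 and EIF4ENIF1 had 501 and 3693 bp, DYNLT5 501 and 3627 bp, and CSRNP1 501 and 3328 bp. Among the gene lists, TYROBP, the adaptor of activating myeloid receptors, lay under a peak of 12035 bp in knockdown and under peaks of at most 2694 bp in sh-control.

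The broadest Pol II peaks of each list were at loci with peaks in both. The microRNA host gene MIRLET7BHG and its neighbours lay under 60072 bp in knockdown (46035318 to 46095389 on chromosome 22) and under 70422 bp in sh-control (46051804 to 46122225). SATB1, a chromatin organiser gene, had a peak of 53101 bp in knockdown, where the widest sh-control peak was 32305 bp and 52154 bp of the knockdown peak were covered by sh-control peaks. P4HB and ARHGDIA lay under 46525 bp and 47810 bp, BMI1, a Polycomb gene, under 38025 bp and 39418 bp, and HNRNPU, a nuclear RNA-binding protein gene, under 37601 bp and 37081 bp. MIR17HG, the host of the miR-17-92 cluster, had a widest peak of 34111 bp in knockdown and 47201 bp in sh-control, and 39975 bp of that sh-control peak lay under knockdown peaks. At MDM2, the p53 ubiquitin ligase gene, the widest peaks were 25957 bp and 46311 bp, and at ZEB2, a transcriptional repressor gene, 27009 bp and 42409 bp. Of those sh-control peaks, 43723 bp at MDM2 and 36327 bp at ZEB2 lay under knockdown peaks. At P4HB, BMI1 and HNRNPU 1 peak of similar width stood in each list, while at SATB1, MIR17HG, MDM2 and ZEB2 the broad peak of one list met 2 or more narrower peaks of the other.

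The length of each gene under Pol II peaks was then compared, for 6829 protein-coding genes with at least 2 kb covered in either list and some cover in both. The median log2 ratio was 0.05. Cover was at least 2 times larger in knockdown at 598 genes, 8.76%, and at least 2 times larger in sh-control at 353 genes, 5.17%. Outside these 6829, 39 genes had 2 kb or more covered in knockdown and 0 in sh-control, and 10 genes the reverse. The median log2 ratio was 0.00 in genes up to 10225 bp long and 0.15 in those over 88250 bp. Short genes that lie wholly under peaks in both lists have equal cover whatever the width of the peaks.

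**Figure D3:**
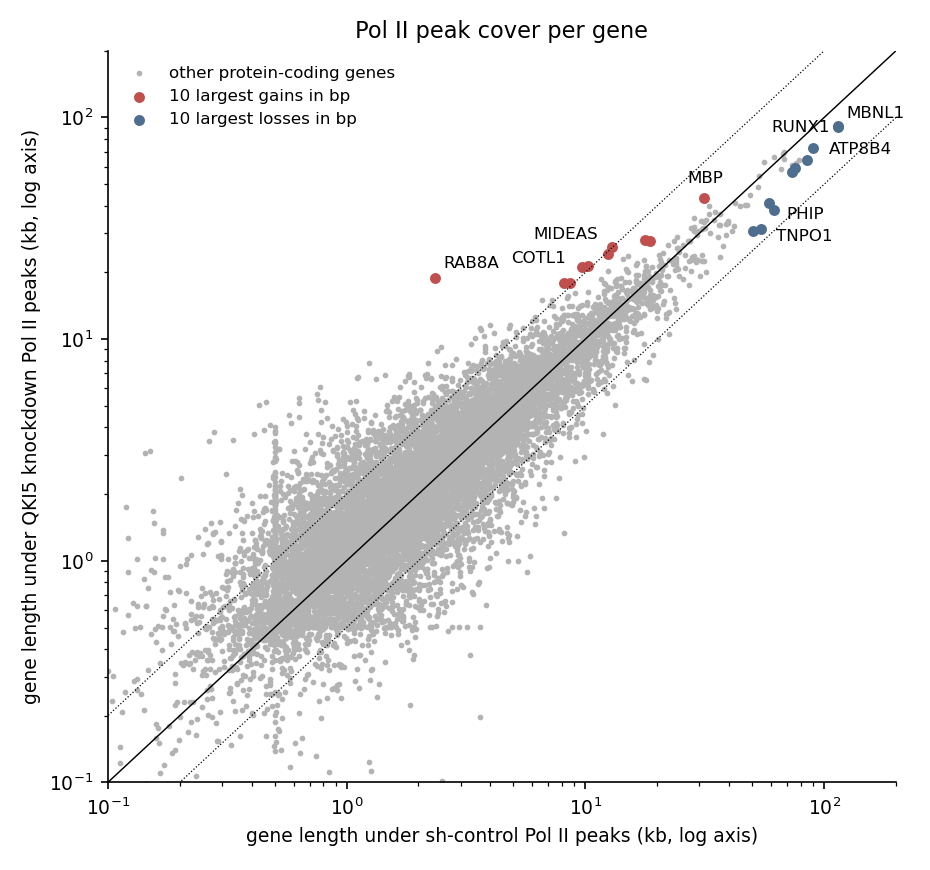
Length of each protein-coding gene under Pol II peaks in QKI5 knockdown (vertical) against sh-control (horizontal), in kb on log axes, for genes covered in both lists. The solid line is equality, dotted lines mark a ratio of 2, red points are the 10 largest gains in bp and blue points the 10 largest losses. RAB8A lies far above the line, with 18823 bp in knockdown and 2347 bp in sh-control, and the blue points all lie at the top right, where most genes fall under the line.

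The largest gain of cover was at RAB8A, which encodes a small GTPase of vesicle transport. Of its 22346 bp, 18823 bp lay under knockdown peaks and 2347 bp under sh-control peaks, a ratio of 8.02. A single knockdown peak of 20573 bp (16117429 to 16138001 on chromosome 19) ran over most of the gene and past its end, where sh-control had a peak of 4680 bp at the 3′ end and 501 bp in the body. The start peaks were 2446 bp in knockdown and 1759 bp in sh-control. MIDEAS, of a histone deacetylase complex, had 26051 bp in knockdown and 12938 bp in sh-control, MBP 43487 and 31284 bp, GRB2 24307 and 12446 bp, and COTL1, which encodes an actin-binding protein, 21089 and 9712 bp. NFIC, a transcription factor gene, had 21337 and 10267 bp, the cadherin gene CDH23 28140 and 17783 bp, GNG7, of a G protein subunit, 17915 and 8118 bp, SMAD3, a transducer of TGF-beta signals, 17911 and 8641 bp, and KDM2B, a histone demethylase gene, 27621 and 18720 bp. The 10 genes together had 246.7 kb in knockdown and 132.3 kb in sh-control.

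The 10 largest losses lay at genes with much more cover. PHIP, which encodes a chromatin-associated protein, had 38101 bp in knockdown and 61864 bp in sh-control, MBNL1, a splicing regulator gene, 91096 and 114446 bp, and TNPO1, which encodes a nuclear import receptor, 31478 and 54630 bp. ATP8B4, of a phospholipid flippase family, had 90851 and 113781 bp, LYST, of lysosomal traffic, 64036 and 85043 bp, TNRC18 30642 and 50139 bp, and RUNX1, a transcription factor of blood development, 72502 and 89894 bp. DOCK8, which encodes an activator of small GTPases in leukocytes, had 41226 and 58614 bp, JMJD1C 56592 and 73256 bp, and ZEB2 59057 and 75634 bp. Together they had 575.6 kb in knockdown and 777.3 kb in sh-control, a change of -26.0%. At TNPO1 the peak over the start was 10692 bp in knockdown and 11472 bp in sh-control, while sh-control peaks of 5943, 8269 and 7687 bp in the body met no knockdown peak or narrower ones.

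**Figure D4:**
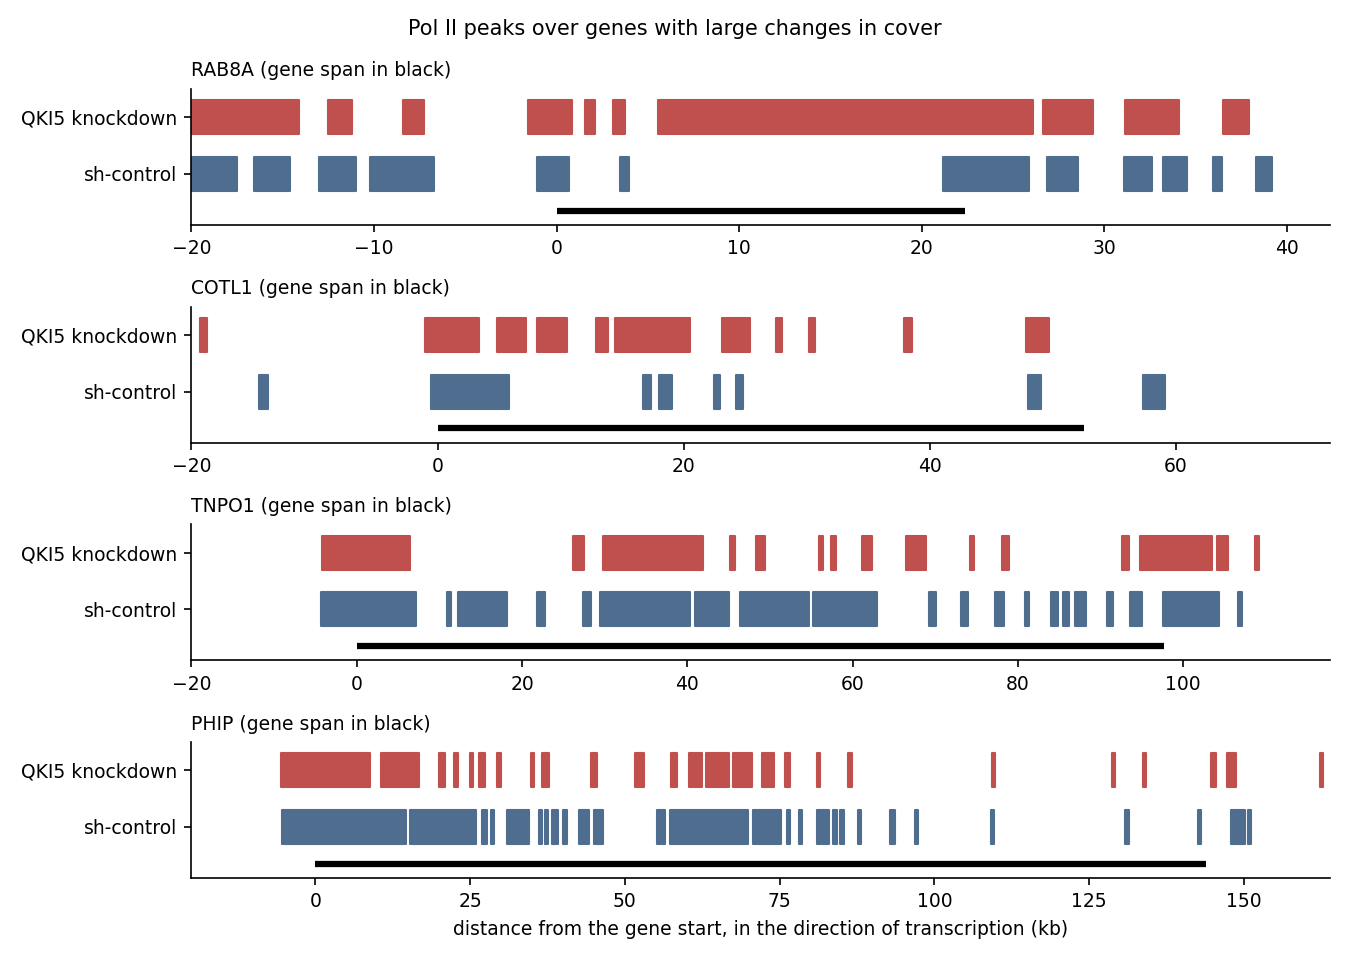
Pol II peaks of QKI5 knockdown (red, upper row) and sh-control (blue, lower row) over RAB8A, COTL1, TNPO1 and PHIP, against the distance in kb from the gene start in the direction of transcription. The black bar is the gene span. At RAB8A 1 broad knockdown peak of 20573 bp fills the body, and at TNPO1 and PHIP the body holds more sh-control than knockdown peak length. The start peaks are alike at TNPO1, and at PHIP that of sh-control reaches farther into the gene.

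Genes were then grouped by total cover. Among genes with 2000 to 4000 bp covered on average the median log2 ratio was 0.05, and among those with 4000 to 8000 bp it was 0.03. It was 0.00 at 8000 to 16000 bp, -0.04 in the 171 genes with 16000 to 32000 bp, and -0.19 in the 46 genes above 32000 bp. In these 46 genes cover was 2143 kb in knockdown and 2442 kb in sh-control, a ratio of 0.878, with more cover in knockdown at 15 genes and less at 31. They include all 10 genes of largest loss, with 575.6 kb and 777.3 kb, and MBP of the 10 largest gains. The ratio is therefore in part that of genes picked for their loss. H3K4me3 cover of the same 46 genes was 918 kb in knockdown and 1015 kb in sh-control, a ratio of 0.904. Over all 6829 genes H3K4me3 cover had a ratio of 0.958 and Pol II cover one of 1.03. When gaps of up to 5 kb between peaks were bridged, cover of the 46 genes had a ratio of 0.930. The list chosen for the largest losses had an H3K4me3 ratio of 0.882, and that chosen for the largest gains one of 1.05. Whether depth or peak calling had a part in these ratios was not tested.

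Cover was then followed along 8941 genes of 20 kb or longer. Over the first 2 kb after the start 38.7% of the window lay under peaks in knockdown and 36.6% in sh-control, a ratio of 1.06. Over the 2 kb before the start it was 31.8% and 29.9%, and from 2 to 5 kb after it 7.37% and 6.79%. In the body beyond 10 kb, cut into 5 equal parts, it was between 0.983% and 2.13% in knockdown and between 1.01% and 2.05% in sh-control, with ratios from 0.977 to 1.04. Past the 3′ end cover was higher again, at 13.3% in knockdown and 12.3% in sh-control over the first 2 kb and at 8.76% and 8.07% from 5 to 10 kb, with ratios of 1.08 and 1.09. From 5 to 2 kb before the start cover was 6.28% in knockdown and 5.76% in sh-control, and from 10 to 5 kb before it 4.63% and 4.32%. The ratios there were 1.09 and 1.07. By ratio, the higher knockdown cover thus lay upstream of starts, around them and past ends, and was least in the middle of the body.

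The 169 of these genes with over 16 kb covered on average, among them the genes of largest loss, had another profile. Cover of the first 2 kb was 80.7% in knockdown and 80.6% in sh-control, and of the first 2 kb past the 3′ end 63.5% and 63.4%. In the body it was lower in knockdown in each of the 5 parts. It was 25.1% in knockdown and 27.7% in sh-control in the part nearest the start, 21.8% and 24.8% in the next, 15.5% and 17.96% in the middle, 17.7% and 20.1% in the part after it and 19.7% and 21.2% in the last, with ratios from 0.866 to 0.933. In these genes start and end had equal cover in the lists, and the difference lay in between.

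**Figure D5:**
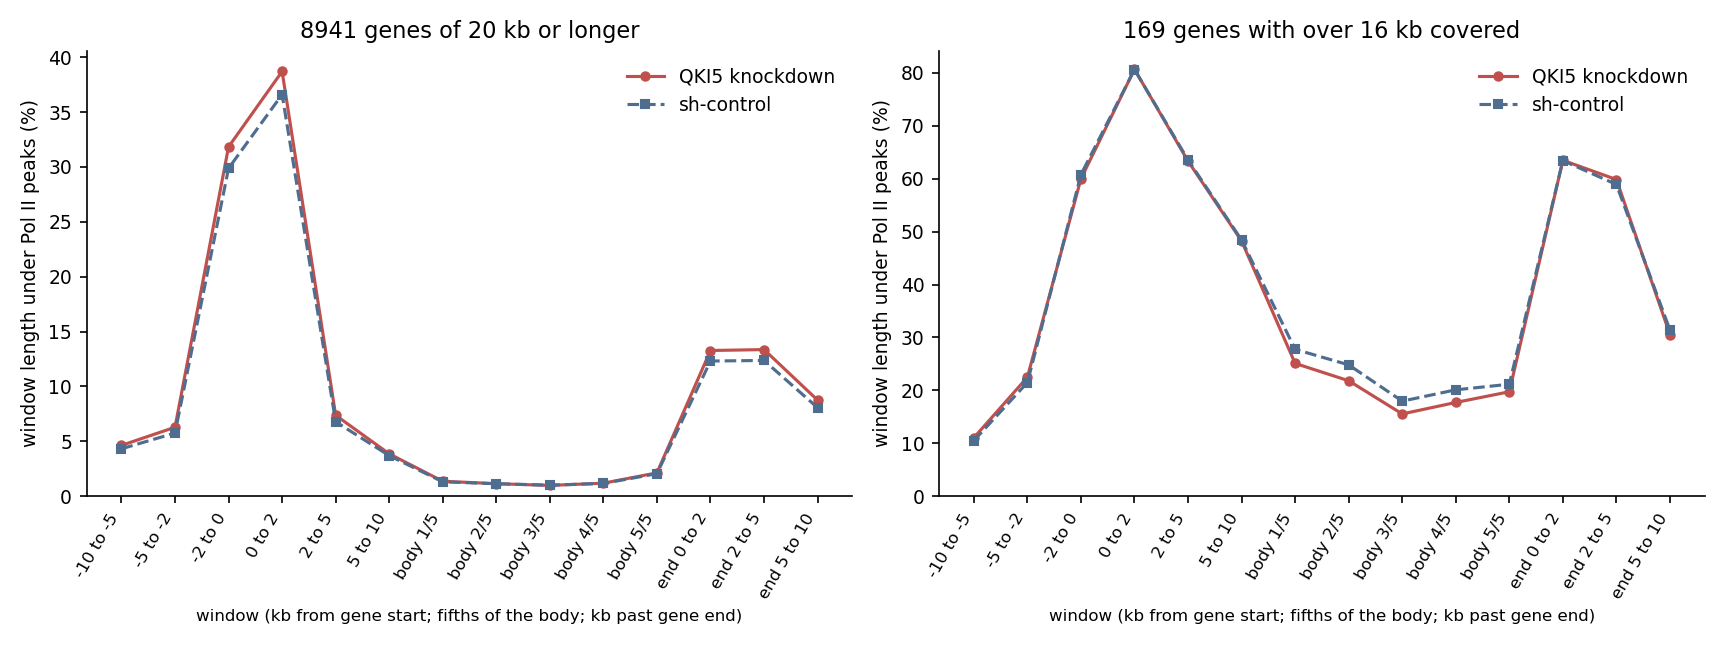
Share (%) of each window under Pol II peaks in QKI5 knockdown (red, solid) and sh-control (blue, dashed), from 10 kb before the start, through 5 equal parts of the body, to 10 kb past the end. The left panel holds 8941 genes of 20 kb or longer, where knockdown is higher at the start (38.7% against 36.6%), and the right panel the 169 of them with over 16 kb covered, where it is lower in the body (15.5% against 17.96% in its middle). The vertical scales differ.

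Changes of cover in the gene lists were read beside the 8.76% and 5.17% of all genes. Of 29 cell cycle genes with enough cover 4 had at least 2 times more in knockdown and 0 in sh-control, while the median log2 ratio of the list was -0.06. These were MCM2 (2760 bp in knockdown and 974 bp in sh-control) and MCM4 (2917 and 1216 bp), of the replicative helicase, CDC25A, a phosphatase gene of cell cycle entry (2737 and 1203 bp), and E2F1, a transcription factor of S phase genes (2085 and 579 bp). Of 28 genes of pausing, elongation and termination 3 had at least 2 times more in knockdown. They were SSRP1, of the histone chaperone FACT (3051 and 1379 bp), AFF4, a scaffold of the super elongation complex (3522 and 1437 bp), and CDK7, the kinase of TFIIH (2229 and 1036 bp). CDK12, a kinase of elongating Pol II, had 3539 bp in knockdown and 7377 bp in sh-control. POLR2C, a Pol II subunit gene, had 1478 and 3142 bp, and TRA2A, a splicing regulator gene, had 2811 and 9074 bp. NFKB1 had 2627 and 1144 bp, and CREBBP, an acetyltransferase gene, had 2680 and 1323 bp. MCM2, CDC25A, E2F1, CDK7 and NFKB1 had little cover, up to 2000 bp on average over the lists. Of the 891 compared genes with so little cover, 23.7% had at least 2 times more in knockdown and 13.2% in sh-control. At TYROBP 3893 bp were covered in knockdown and 1293 bp in sh-control. Of the lists of other cell types, CD5, a T cell surface gene, had 2864 bp in knockdown and 1032 bp in sh-control. None of the 39 ribosomal protein genes and none of 15 myeloid transcription factor genes passed the 2-fold limit in either direction. Cover cannot exceed the gene, so genes wholly under peaks in both lists, such as RPL4 and CEBPA, could not differ. Of the 39 ribosomal protein genes 9 had more cover in knockdown and 12 less, and of the 15 myeloid factor genes 6 had more and 4 less.

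Away from gene ends, the widest single-list peaks more than 5 kb from the other list were a few kb wide. In gene bodies those of knockdown were at NTSR1 (4598 bp, 62716547 to 62721144 on chromosome 20), CPT1A, of mitochondrial fatty acid uptake (4304 bp), NOL4L (3263 bp), TOP6BL (3007 bp), and DOCK2 with INSYN2B (2868 bp, 196104 bp from the nearest sh-control peak). Those of sh-control were at TNPO1 (5943 bp, 72828924 to 72834866 on chromosome 5), RUNX1 (4646 bp, 14573 bp from the nearest knockdown peak), ACTR2, of the actin-nucleating complex (3968 bp), ZNF267 (3937 bp) and WNT4 (3783 bp). The TNPO1 and RUNX1 peaks belong to the genes of large cover loss described above.

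Between protein-coding genes, the widest knockdown-alone peaks lay nearest to UBE3C (4739 bp, 1288 bp from the gene), PPP6R3 (4492 bp, 1701 bp away) and SPAG1 (3529 bp, 2093 bp away). Next came NOL4L (3305 bp, 17286 bp away) and LY86, a myeloid surface protein gene (3125 bp, 93589 bp away). Of the widest sh-control-alone peaks, those nearest to UBALD1 (3824 bp, 1074 bp from the gene) and EIF3L (2935 bp, 1827 bp away) lay close. The others were far from their nearest gene, which was MAT2B (4771 bp, 1666098 bp away), PNRC1 (2098 bp, 44051 bp away) and BRINP3 (2049 bp, 1025549 bp away). The peaks with LY86, MAT2B and BRINP3 as nearest gene carried H3K4me3 in both conditions, and that with PNRC1 carried it in sh-control alone. The peaks within 2 kb of UBE3C, PPP6R3, UBALD1 and EIF3L lay just beyond the 1 kb limit of a gene end and carried no mark.

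QKI5 binding to RNA was read from the crosslinking immunoprecipitation (CLIP) list of sh-control, which had peaks in 2796 matched protein-coding genes. Of 465 such genes without a sh-control Pol II gene-end peak, 100 had one in knockdown, 21.5%, against 695 of 7638 genes without a CLIP peak, 9.10%. Of the genes with a Pol II gene-end peak in either list, the order was opposite, 100 of 2431 genes with a CLIP peak, 4.11%, against 695 of 10298 without, 6.75%. The comparison therefore depends on the denominator. A CLIP peak needs the RNA to be present, and RNA levels were not analysed here. Of the 10 genes with the largest gain of Pol II cover 4 had a CLIP peak, and of the 10 with the largest loss 4 had one, against 22.98% of the 6829 genes compared. The genes of both sets were long, with medians of 119.6 kb and 222.4 kb, against 30.2 kb.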

How the data were processed

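Per the series design text, the authors made each deposited peak list from both replicates of a condition. The submitters' processing notes name HOMER and GRCh38.p5 with no role or order. For the aligner, the peak caller and any use of inputs, nothing is stated (not given in the sources used here). The score deposited by the authors is 1 at every ChIP peak, so peaks were described by position and width. The CLIP lists deposited by the authors, without a header, hold values that fit a −log10 p and a log2 enrichment. CLIP peaks were used here only for their genes.

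Overlaps, widths and cover were computed with Python 3.11.15, numpy 2.4.6, pandas 2.3.3 and scipy 1.17.1, tested on simulated intervals. Gene spans were those of RefSeq in GRCh38.p14, matched by primary chromosome coordinates, which patches of one build share. Strand and start came from RefSeq promoters, which covered 79.1% of 20037 protein-coding genes. Shares have exact (Clopper-Pearson) intervals and differences Newcombe intervals, at 95%, except differences in sharing, which have none. No test across conditions was possible, since each condition has 1 pooled list. Named genes were the 10 widest single-list gene-end peaks over 5 kb from the other list, the 10 largest gains and losses of cover, the 5 largest width ratios per direction at sites of 2 kb or more, the 5 widest single-list body and intergenic peaks, members called in the 21 gene lists, and the 5 widest peaks. Members and lists were chosen with earlier results of these data known. A few list members are not reported here.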

Additional observations from a re-analysis of the deposited data

How the results depend on the processing

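No paired analysis was possible because each list pools both replicates and carries no replicate number, and for the same reason no replicate could be left out. With at least 50% of each peak overlapping, 41.3% of knockdown and 43.4% of sh-control peaks were shared. Among peaks wider than 501 bp the shares were 69.4% and 74.3%, with gaps up to 1 kb bridged 61.4% and 65.4%, and among the widest 33370 peaks of each list 61.5% and 62.4%. Gene-end shares were 34.5% and 34.7% within 500 bp, 44.1% and 44.5% within 2 kb, 48.3% and 48.6% for peaks wider than 501 bp, and 45.05% and 45.11% with all gene types. Gene-body shares were 42.8% and 44.2% within 500 bp, 37.1% and 38.3% within 2 kb, and 32.6% and 33.5% for peaks wider than 501 bp. Intergenic shares were 22.7% and 21.1%, 18.8% and 17.2%, and 19.1% and 17.9% under the same settings, and 13.5% and 12.2% with all gene types. Genes with a gene-end peak in sh-control alone numbered 204 under the 5 kb rule and 235 at start sites, an alternative chosen after seeing the data. With a width ratio of 2, 1356 sites were wider in knockdown and 839 in sh-control. With a cover ratio of 1.5, 1392 genes had more in knockdown and 920 in sh-control, with a minimum of 1 kb 1023 and 579, and with one of 5 kb 127 and 83. With gaps bridged, sites with more peaks in sh-control numbered 821 in place of 1248, and those with more in knockdown 694 in place of 972. In each of these settings the list with the larger value was the one given in the report. Bridging gaps for gene cover was also chosen after seeing the data. The unknown depth limits all absences, which say only that no peak was called.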

Other observations

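Of chromosomes 1 to 22 and X, chromosome X had the highest ratio of single-list peaks, with 204 in knockdown and 109 in sh-control, which is 26.8% and 16.3% of its peaks and the lowest shares among these chromosomes. By position these were 39 and 17 gene-end, 99 and 66 gene-body and 66 and 26 intergenic peaks. The ratio of single-list counts was 1.87 on chromosome X, 1.38 on chromosome 4, 1.38 on chromosome 17 and 1.02 on chromosome 1. Among the same chromosomes, chromosome 17 had the highest ratio of covered length, with 3.47 Mb in knockdown and 3.06 Mb in sh-control. Chromosome 21 had their highest median log2 ratio of cover per gene, 0.24 over 68 genes.

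Non-coding genes were also compared. Long non-coding RNA genes had a gene-end Pol II peak in knockdown alone at 479 and in sh-control alone at 255, with 3508 in both. Protein-coding genes, for comparison, had 795 and 383, with 11551 in both. MicroRNA genes had 83 and 40, with 348 in both, and tRNA genes, which Pol III transcribes, had 22 and 12, with 137 in both. Small nucleolar RNA genes had 25 in knockdown alone and 38 in sh-control alone, beside 227 in both. Small nuclear RNA genes had 2 and 2, with 37 in both, and pseudogenes 196 and 195, with 473 in both. Many of these short genes lie inside or beside longer ones, and Pol II of the neighbour cannot be told apart from their own. Each gene was counted, also where several lay at the same peak.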
